A study of Mus musculus with 6 samples.

Results

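The 9 genes described here are transcription factors of the enteroendocrine lineage, chosen by name: Pax6, Etv1, Neurod1, Neurog3, Isl1, Insm1, Nkx2-2, Cdx2 and Foxa2. All 9 were rows of the deposited count table of 54532 genes. RNA was sequenced from cells labelled Glu-tag, the name of a mouse enteroendocrine line that is known for making proglucagon-derived peptides. The labels give small intestine as its tissue, and the design text counts it among cell lines of SI-NET, tumours of the gut's hormone cells. The 3 control libraries came from cells labelled WT that carry a control hairpin (shControl), and the 3 others from cells labelled IRS2 Knockdown that carry a stable hairpin against IRS2 (shIRS2). Titles number the libraries 1 to 3 in each group, and no label gives a treatment, a time or a clone. The tables head their columns NC1 to NC3 and S1 to S3, which were read as the control and shIRS2 libraries of those numbers from the names alone.

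Enteroendocrine cells are the hormone-secreting cells of the gut lining. They arise when a progenitor switches on Neurog3, which hands over to Neurod1, Insm1, Isl1, Pax6 and Nkx2-2, and these keep hormone and secretory granule genes active. Cdx2 sets intestinal identity in the whole epithelium, and Foxa2 is a pioneer factor of endoderm that also acts on the proglucagon gene in endocrine cells.

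Etv1, Pax6, Foxa2 and Nkx2-2 were expressed in all 6 libraries, while Neurod1, Neurog3 and Cdx2 had 0 counts and Isl1 and Insm1 had 1 and 5 counts in all libraries together. Levels are given as CPM, counts scaled to 1000000 counts in the library, and genes are compared with each other only as FPKM, which also divides by gene length. Expressed means a mean of at least 1 CPM in either group, and for gene lists over all 6 libraries. Of the 1469 genes with a transcription factor family in the table, 860 had a mean of at least 1 CPM, which is 58.5%, and 296 had 0 counts throughout, which is 20.1%. Among the 9 factors these numbers were 4 and 3. Expressed factors kept at least 1 CPM in each single library, so presence did not vary with the hairpin or with the number.

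**Figure D1:**
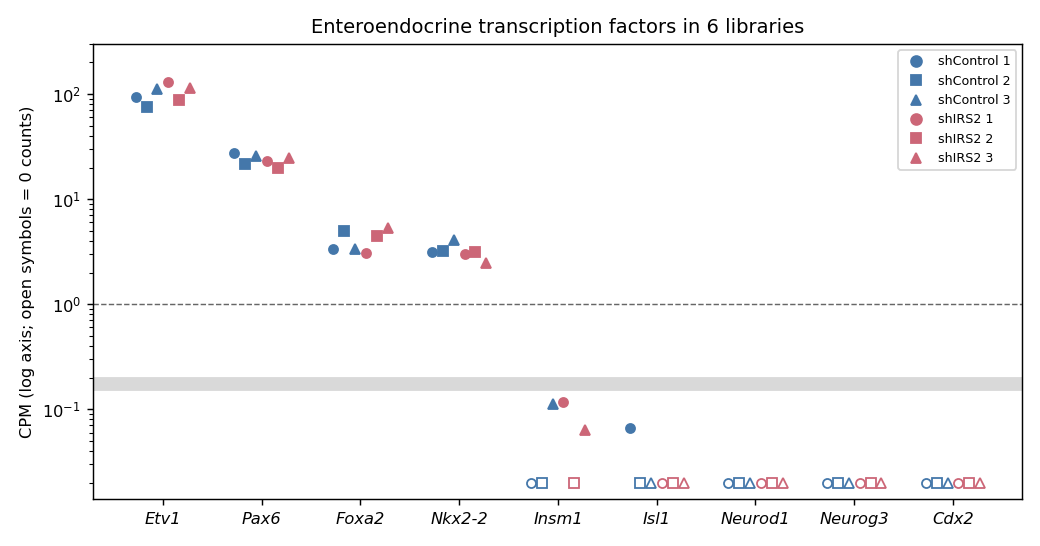
CPM of each factor in each library on a log axis, with colour for the hairpin and symbol shape for the number. Open symbols at the bottom stand for 0 counts, the dashed line is 1 CPM and the grey band is 3 counts in a library. Etv1, Pax6, Foxa2 and Nkx2-2 lie above 1 CPM in all 6 libraries and the other 5 factors lie below the grey band.

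The depth was 14991019 to 19790073 counts per library. Irs2, the target of the hairpin, stood at 31.6, 22.7 and 34.3 CPM in the control libraries and at 31.4, 28.6 and 38.7 CPM in the shIRS2 libraries, a log2 fold change of 0.17 (95% interval -0.20 to 0.54). The target is thus not lower where the label says knockdown, and directions are given for the shIRS2-labelled libraries, whatever their Irs2 level. In the comparison of the hairpins edgeR called 0 of 13472 tested genes (0%) at an adjusted p of 0.05, with 262 at an unadjusted p under 0.05, and DESeq2 called 2, Gm44126 and Gm2446, which were picked out after their values were seen. The label of the cells was not matched by their RNA either: Gcg, Chga and Pcsk1 had 0 counts in all libraries and Epcam had 1. Each 0 below is therefore a measurement of these libraries, and whether it holds for the named line was not tested. Counts measure RNA of the whole culture, in which fewer cells of a type and less RNA per cell cannot be told apart.

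The sequence just before the gene start is shown for 2 expressed factors, Pax6 and Foxa2, and 2 with 0 counts, Neurog3 and Cdx2, because these windows are where the expressed and the silent factors can be set side by side outside, or for Cdx2 nearly outside, the annotated gene. Each is the 250 bases before the first RefSeq start in the table, 5′ to 3′ on the gene's strand, in GRCm38.p6, the assembly that mm10 names. Capitals mark E-boxes, CANNTG on either strand, the element that bHLH factors such as Neurod1 and Neurog3 bind.
Pax6, plus strand, chr2:105668646-105668895: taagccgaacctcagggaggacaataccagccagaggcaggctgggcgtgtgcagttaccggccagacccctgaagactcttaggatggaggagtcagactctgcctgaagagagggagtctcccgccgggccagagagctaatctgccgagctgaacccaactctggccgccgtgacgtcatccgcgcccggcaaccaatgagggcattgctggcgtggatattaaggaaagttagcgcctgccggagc
Foxa2, minus strand, chr2:148046970-148047219: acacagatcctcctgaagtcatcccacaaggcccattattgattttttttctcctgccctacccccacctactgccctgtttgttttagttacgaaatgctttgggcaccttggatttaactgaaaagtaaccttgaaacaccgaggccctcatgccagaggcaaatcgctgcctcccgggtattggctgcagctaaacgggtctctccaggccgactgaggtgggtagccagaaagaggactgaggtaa
Neurog3, plus strand, chr10:62132840-62133089: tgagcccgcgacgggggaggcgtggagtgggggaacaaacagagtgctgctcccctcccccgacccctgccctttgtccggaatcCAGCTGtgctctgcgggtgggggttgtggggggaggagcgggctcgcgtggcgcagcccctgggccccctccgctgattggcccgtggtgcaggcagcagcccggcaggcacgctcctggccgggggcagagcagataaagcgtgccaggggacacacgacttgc
Cdx2, minus strand, chr5:147307250-147307499: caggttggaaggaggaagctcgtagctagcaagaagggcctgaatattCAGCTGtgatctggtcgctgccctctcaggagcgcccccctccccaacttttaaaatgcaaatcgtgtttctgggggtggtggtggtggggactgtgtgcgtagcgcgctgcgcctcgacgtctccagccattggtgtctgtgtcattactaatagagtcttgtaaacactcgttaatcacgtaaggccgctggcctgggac
The windows of Neurog3 and Cdx2 each hold 1 E-box and those of Pax6 and Foxa2 hold 0, where 66.2% of 32851 promoter windows of this length hold at least 1. The forkhead core TGTTTAC, on either strand, has 1 match in the Cdx2 window and none in the other 3, and 3.17% of all windows hold it. CpG dinucleotides number 15 for Pax6, 6 for Foxa2, 18 for Neurog3 and 13 for Cdx2, against a median of 6 over all windows. Foxa2 has 3 listed starts and Pax6 has 2, and which start these cells use was not measured. Windows of 8 of the 9 factors were found, all but that of Insm1. Of the remaining ones, Isl1 has 33 CpGs, a number that 4.03% of windows reach, Neurod1 has 22, Nkx2-2 has 8 and the first start of Etv1 has 9. Both expressed and undetected factors thus include windows with more CpGs than the median. The E-box split of the windows shown does not extend to all windows found. Nkx2-2, which was expressed, has 3 E-boxes. For Etv1, start 1 has 0 and start 2 has 3. Start 2 of Pax6 has 1, and starts 2 and 3 of Foxa2 have 0 and 1. The undetected Neurod1 and Isl1 have 1 each. A match is a run of letters and says nothing of binding.

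Neurog3, Neurod1, Isl1 and Insm1 were at or near 0, while Pax6 and Nkx2-2 of the same endocrine programme were expressed. Neurog3, the bHLH factor that commits a progenitor to the endocrine fate (chromosome 10, 62133090 to 62134763, plus strand), had 0 counts in each library. Neurod1, its bHLH successor (chromosome 2, 79452521 to 79456751, minus strand), also had 0 counts in each library. A total of 0 allows up to 0.0295 CPM, or 3 counts in the pooled depth, and the exact 95% Poisson upper limit is 0.0363 CPM, both for counting error only. Neurod1 lies within the gene Cerkl on the same strand, which held 91 counts in all, or 0.896 CPM, and Neurog3 lies within Fam241b on the other strand, which held 0. How reads of overlapping genes were assigned is not given in the labels. Read entirely as Neurod1, the counts of Cerkl would still be under 1 CPM. Reads left out because they fit both genes would appear in neither count, so this sets no ceiling for Neurod1.

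Isl1, a LIM homeodomain factor of hormone cells (chromosome 13, 116298281 to 116309689, minus strand), had 1 count in the control library numbered 1 and 0 in the other 5. Insm1, a zinc finger repressor needed for endocrine maturation (chromosome 2, 146221921 to 146225020, plus strand), had 0, 0 and 2 counts with the control hairpin and 2, 0 and 1 with the IRS2 hairpin. Over the 6 libraries this is 0.0492 CPM for Insm1, with an exact 95% Poisson interval of 0.0160 to 0.115 CPM, and 0.00985 CPM for Isl1, with 0.000249 to 0.0549 CPM. Every one of these single-library values is below 3 counts, so no order among libraries can be read from them. Cdx2, the homeobox factor of the intestinal epithelium (chromosome 5, 147300805 to 147307270, minus strand), had 0 counts in each library. These 5 genes did not pass the filter on low counts and have no test.

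Etv1 was the factor with the highest level. It encodes an ETS factor of the PEA3 group, a known target of receptor tyrosine kinase signalling, and spans 38779380 to 38870484 on the plus strand of chromosome 12. It stood at 94.3, 75.3 and 112 CPM in the control libraries numbered 1, 2 and 3 and at 131, 88.0 and 115 CPM in the shIRS2 libraries, from 1413 to 2232 counts. The highest value was the shIRS2 library numbered 1, the lowest 2 were the libraries numbered 2, and the hairpin groups overlapped. The means were 93.7 ± 18.1 and 112 ± 22.0 CPM (SD, n = 3 each). On the log2 scale shIRS2 minus control was 0.26 (SE 0.16, 95% interval -0.11 to 0.63), and the edgeR adjusted p was 1.00. The ratio was positive in all 3 numbered pairs, at 0.50, 0.23 and 0.05 on the log2 scale. With the number as a block the fold change was 0.26 (SE 0.08) and the edgeR adjusted p 0.379. That fit called 1 gene in all (0.00742%), Gm44126, and gave 9.16% of genes an unadjusted p under 0.05, among them Etv1 at 0.00538.

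Pax6, a paired and homeodomain factor that activates the proglucagon gene (chromosome 2, 105668900 to 105697364, plus strand), stood at 27.3, 21.5 and 25.8 CPM in the control libraries and at 23.2, 19.8 and 24.7 CPM in the shIRS2 libraries. The libraries numbered 2 were again the lowest of each group, and the hairpin groups overlapped. Means were 24.9 ± 2.99 and 22.5 ± 2.50 CPM (SD, n = 3 each), which is -0.13 on the log2 scale (SE 0.13, 95% interval -0.42 to 0.16), and edgeR gave an adjusted p of 1.00. It was negative in all 3 pairs, at -0.21, -0.11 and -0.06. Its antisense neighbour Pax6os1, which overlaps its start, held 24 counts in all.

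Foxa2 (chromosome 2, 148042877 to 148046969, minus strand) stood at 3.34, 4.95 and 3.33 CPM in the control libraries and at 3.06, 4.44 and 5.30 CPM in the shIRS2 libraries. Its highest library was the shIRS2 library numbered 3 and its lowest the shIRS2 library numbered 1, so that the control values lay inside the range of the other group. The log2 difference between hairpins came to 0.14 (SE 0.26, 95% interval -0.45 to 0.73), at an adjusted p of 1.00 in edgeR. Without the shIRS2 library numbered 3 it was -0.036. The pairs had -0.10, -0.15 and 0.67.

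Nkx2-2, a homeobox factor that specifies several hormone cell types (chromosome 2, 147177546 to 147194243, minus strand), stood at 3.14, 3.18 and 4.07 CPM in the control libraries and at 3.00, 3.17 and 2.49 CPM in the shIRS2 libraries. The groups overlapped, and the pair numbered 3 held both the highest and the lowest. Its log2 difference came to -0.25 (SE 0.22, 95% interval -0.74 to 0.24), at an adjusted p of 1.00 in edgeR, and pair ratios were -0.04, 0.00 and -0.70. The antisense genes 6430503K07Rik and Nkx2-2os, which overlap it, held 33 and 9 counts against 324 for Nkx2-2.

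None of the 4 expressed factors passed the comparison of hairpins, and 0 of them had groups without overlap, where 6.35% of all tested genes did, 3.26% higher and 3.1% lower. Their log2 fold changes were 2 positive and 2 negative, with a median of 0.01 beside -0.00 over all tested genes. In the fit without the block, the 95% interval ran from a fall of 25.2% to a rise of 12.1% for Pax6. For Etv1 it ran from a fall of 7.03% to a rise of 55.0%. It spanned a fall of 40.2% to a rise of 18.4% for Nkx2-2 and a fall of 26.9% to a rise of 66.0% for Foxa2. A 2-fold change in either direction lies outside each of these intervals, which rest on 3 libraries per group. With the number as a block the Etv1 interval was 0.09 to 0.43 on the log2 scale. Those of Pax6, Nkx2-2 and Foxa2 still included 0.

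**Figure D2:**
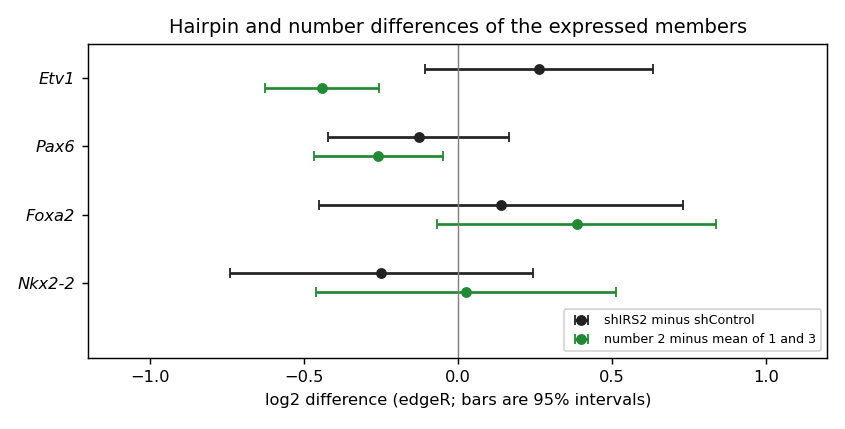
Log2 differences of the 4 expressed factors with 95% intervals from edgeR, for the hairpin (shIRS2 minus shControl, black) and for the number (number 2 minus the mean of numbers 1 and 3, green). All 4 hairpin intervals include 0, and the Etv1 number interval runs from -0.62 to -0.26.

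Etv1 was the factor that differed by replicate number. The test of the number over all genes, with the hairpin as a second term, called 2638 of 13472 genes (19.6%), and Etv1 was the 1 called among the 4 expressed factors, at an edgeR adjusted p of 0.00731. In the contrast of number 2 against the mean of numbers 1 and 3, which called 11.9% of genes lower and 11.6% higher, Etv1 fell by 0.44 on the log2 scale (SE 0.09, 95% interval -0.62 to -0.26), at 0.00230 for the edgeR adjusted p. Both libraries numbered 2 lay below the other 4, as in 20.1% of all tested genes, and in 40.1% both lay outside the range of the others in one direction. At this background 1 of 4 is not a result about the factors as a set. The call in the test of the number was lost without the control library numbered 2, at an adjusted p of 0.0638, and without the shIRS2 library numbered 2, at 0.106, each of which leaves that number with 1 library. It was also lost without the hairpin term, at 0.0919, and on log2(FPKM + 1) with limma, at 0.121.

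Pax6 also lay below the other 4 libraries in both libraries numbered 2, with a log2 contrast of -0.26 (SE 0.10, 95% interval -0.47 to -0.05), and it did not pass, at an edgeR adjusted p of 0.0723 for the contrast and 0.169 for the test of the number. Without the shIRS2 library numbered 1 the adjusted p of its contrast was 0.0452, and with each other library left out it ranged from 0.0680 to 0.503. Foxa2 had a contrast of 0.39 (SE 0.21) and an edgeR adjusted p of 0.207. It was 0.59 without the shIRS2 library numbered 3, at 0.0403, but 0.15 without the control library numbered 2, at 0.881, 0.19 without the control library numbered 3, at 0.594, and 0.61 without the shIRS2 library numbered 2, at 0.245. Nkx2-2 had a contrast of 0.03 (SE 0.23) and an adjusted p of 0.946, with values of both signs when single libraries were left out.

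**Figure D3:**
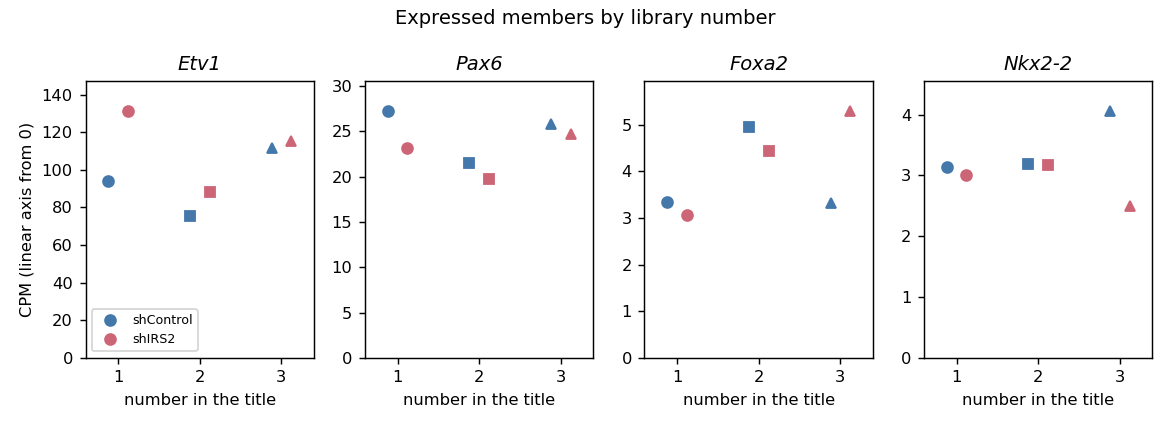
CPM of the 4 expressed factors by the number in the title, on linear axes from 0, with colour for the hairpin. For Etv1 and Pax6 both points at number 2 lie below the other 4, while for Foxa2 and Nkx2-2 the 2 hairpins part at number 3.

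The spread of each factor can be set beside its counting error. Over the 6 libraries the coefficient of variation was 20.0% for Etv1 and 11.7% for Pax6, where counting error alone gives 2.41% and 5.00%. For Foxa2 it was 23.4% against 12.0%, and for Nkx2-2 16.0% against 13.6%, so most of the spread of Nkx2-2 is of the size that its mean of 54 counts per library gives by itself. The highest library exceeded the lowest by a factor of 1.74 for Etv1, 1.38 for Pax6, 1.73 for Foxa2 and 1.63 for Nkx2-2.

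Over the 6 libraries the Pearson correlation of log2 CPM was 0.43 between Etv1 and Pax6 and -0.53 between Nkx2-2 and Foxa2, the extremes of the pairs among the 4, given as a description of libraries that share numbers and depth. The genes most like Etv1 over the 6 libraries were Slc17a5, Pfkp and Ids, at correlations of 0.999, 0.996 and 0.993, and those most like Pax6 were Aldh3a2, Ptcd1 and Zfand4, at 0.998, 0.993 and 0.993. For Foxa2 they included Cops7a and Timmdc1, at 0.983 and 0.959, and for Nkx2-2 they were Poc5, Slc25a43 and Cacfd1, at 0.979, 0.964 and 0.951. How many genes came this close differed by factor: 417 of 9636 candidate genes reached 0.9 with Etv1 and 389 with Pax6. With Foxa2 and Nkx2-2, 19 and 11 of 9637 did.

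Per length the order of the expressed factors was Etv1, Pax6, Foxa2, Nkx2-2. The mean was 6.99 ± 1.31 FPKM in the control and 8.39 ± 1.57 FPKM in the shIRS2 libraries for Etv1, 2.11 ± 0.224 and 1.93 ± 0.193 FPKM for Pax6, 1.62 ± 0.416 and 1.80 ± 0.478 FPKM for Foxa2 and 1.19 ± 0.182 and 1.01 ± 0.131 FPKM for Nkx2-2 (SD, n = 3 each). Pax6 and Foxa2 overlapped in their values and are not separated by their spread, and the lowest values of Foxa2, down to 1.28 FPKM, lay under the highest of Nkx2-2, at 1.40 FPKM. Etv1 was above all 3 in every library, from 5.71 to 9.82 FPKM. Among the 1469 transcription factors the ranks by mean FPKM were 278 for Etv1, 610 for Pax6, 645 for Foxa2 and 731 for Nkx2-2.

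Per length, some close relatives stood above the factors themselves. Of 22 listed relatives 6 had a mean of at least 1 CPM and 7 had 0 counts throughout. In the PEA3 group Etv4 had 29.7 and Etv5 15.6 FPKM, both above the 7.69 FPKM of Etv1. This order rests on the listed gene lengths of 3104, 4103 and 13296 bases. In CPM it was reversed, with means of 92.5 for Etv4, 64.3 for Etv5 and 103 for Etv1. Etv5 was also lower in the libraries numbered 2, by a log2 contrast of -0.32 (SE 0.07) at an edgeR adjusted p of 0.00425, while Etv4 had -0.05 (SE 0.07) and 0.654. In the PAX family Pax3, known from neural crest and muscle precursors, had 4.07 FPKM and Pax5, known from B cells, 2.37 FPKM, beside 2.02 FPKM for Pax6. The mean CPM of Pax5, at 21.1, was below the 23.7 of Pax6, whose listed length is greater. Pax5 went the other way by number, with a contrast of 0.50 (SE 0.11) and an edgeR adjusted p of 0.00385. The relative Isl2 had 1.89 FPKM where Isl1 had 0.00275, and Nkx2-5, a heart regulator, had 19.2 FPKM where Nkx2-2 ranged from 0.862 to 1.40. Foxa1 and Foxa3 had 0.239 and 0.0634 FPKM, below the 1.71 FPKM of Foxa2. How reads shared between paralogs were counted is likewise not given. None of the 7 tested relatives passed the comparison of hairpins, and 2 passed the test of the number, beside 19.6% of all tested genes.

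**Figure D4:**
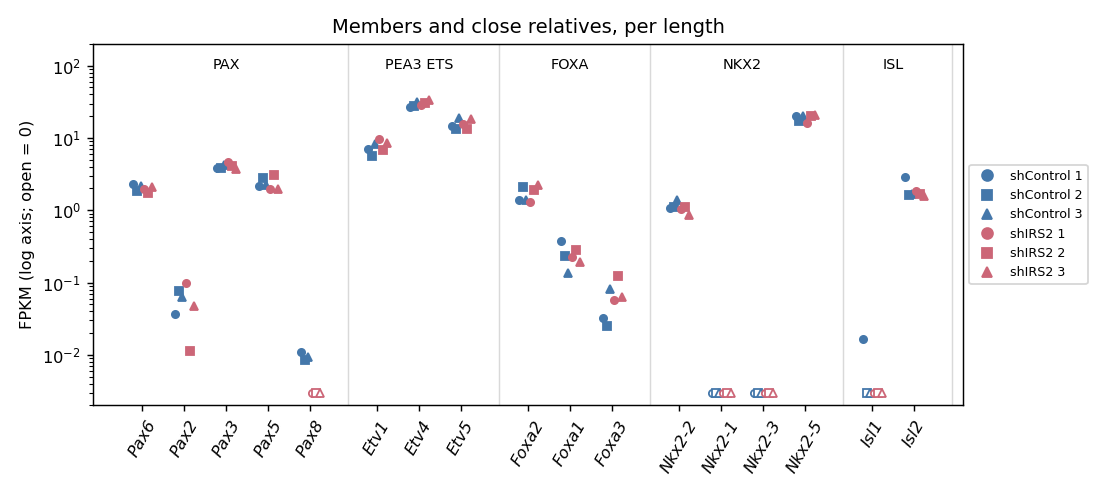
FPKM of 5 of the factors and their close relatives in each library, on a log axis, with colour for the hairpin, symbol shape for the number and open symbols for 0. Etv4 and Etv5 lie above Etv1, Nkx2-5 lies above Nkx2-2 and Isl2 above Isl1, while Foxa2 lies above Foxa1 and Foxa3.

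Other regulators of the endocrine lineage were mostly undetected. Of 31 such genes 18 had 0 counts in all libraries, 10 had 1 to 9 counts and 3 had a mean of at least 1 CPM. The 0s included Rfx6, which acts just after Neurog3 and in mature K and beta cells, Pax4, Atoh1, which makes progenitors secretory, and Nkx6-1. The 3 expressed genes were Rfx3, a regulator of cilia and islet cells, at 1.62 FPKM, Runx1t1 at 1.01 FPKM and Gfi1, a repressor that separates secretory fates, at 0.608 FPKM. None passed the comparison of hairpins. Of these 3 genes Gfi1 was called for the number, beside 19.6% of all tested genes. Its edgeR adjusted p was 0.0450 and its contrast -1.27 (SE 0.36), from 15 to 64 counts per library.

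Of 39 endocrine genes that these factors are known to drive, 17 (43.6%) had 0 counts in all 6 libraries, beside 52.4% of all genes in the table, and 7 had a mean of at least 1 CPM. Gcg, which encodes proglucagon and defines this line, had 0 counts in every library, as did Gip, Sct, Pyy, Nts, Sst and Tac1 among the hormone genes and Chga and Pcsk1 among the granule genes. The hormone gene that defines the labelled line was thus not detected. Not all hormone genes were at 0: Ghrl had 83 counts in all, with a mean of 0.737 FPKM, and Cck had 10 counts. Some secretory genes were present: Cpe, which encodes a carboxypeptidase that trims prohormones, at 82.3 FPKM, Ptprn, a granule membrane phosphatase-like protein, at 28.4 FPKM, Slc18a2, a vesicular monoamine transporter, at 1.47 FPKM and Tph1, the enzyme of gut serotonin synthesis, at 0.664 FPKM. Between hairpins 6 of the 9 tested targets had values above 0 and 3 below, with a median log2 difference of 0.19, and 0 were called. By number 3 of the 9 were called, beside 19.6% of all tested genes. Ptprn had a contrast of -0.35 (SE 0.10) and Tph1 -0.93 (SE 0.21), while Fabp5 went the other way at 0.45 (SE 0.10). The edgeR adjusted p-values in the test of the number were 0.00121, 0.0180 and 0.0177.

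Regulators of gut position were partly expressed. Of 18 such genes 6 had a mean of at least 1 CPM, and Hnf4a, Gata6 and Isx were among those with 0 counts throughout. Sox9, a progenitor factor, stood at 8.31 FPKM, Klf5 at 1.94 FPKM and Tcf7l2, the Wnt effector, at 1.44 FPKM. Klf4 had the smallest hairpin p-value of the list, at a log2 difference of 0.69 (SE 0.30), and did not pass, with edgeR's adjusted p at 1.00. Of the 8 tested genes 2 were called for the number, beside 19.6% of all tested genes. These were Sox9 and Elf3, with contrasts of -0.54 (SE 0.09) and -1.14 (SE 0.24). Of 22 intestinal epithelial genes that act downstream of Cdx2 or mark its tissue, 1 had a mean of at least 1 CPM, the chloride channel gene Cftr, and Krt20, Fabp1, Fabp2 and Alpi had 0 counts.

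Repressors that hold back endocrine genes were present in most cases, at 9 of 12 with a mean of at least 1 CPM. Over all genes with a transcription factor family that share was 58.5%. Rest, which silences neuronal and endocrine genes, stood at 18.2 FPKM, its partner Rcor2 at 33.5, Id3, an inhibitor of bHLH factors, at 21.9 and Yap1, the Hippo effector, at 23.8 FPKM. None differed between hairpins beyond the test, and 2 of 9 were called for the number, beside 19.6% of all tested genes. These were Id1 with a contrast of -0.52 and Id3 with -0.53, at edgeR adjusted p-values of 0.0237 and 0.0285.

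**Figure D5:**
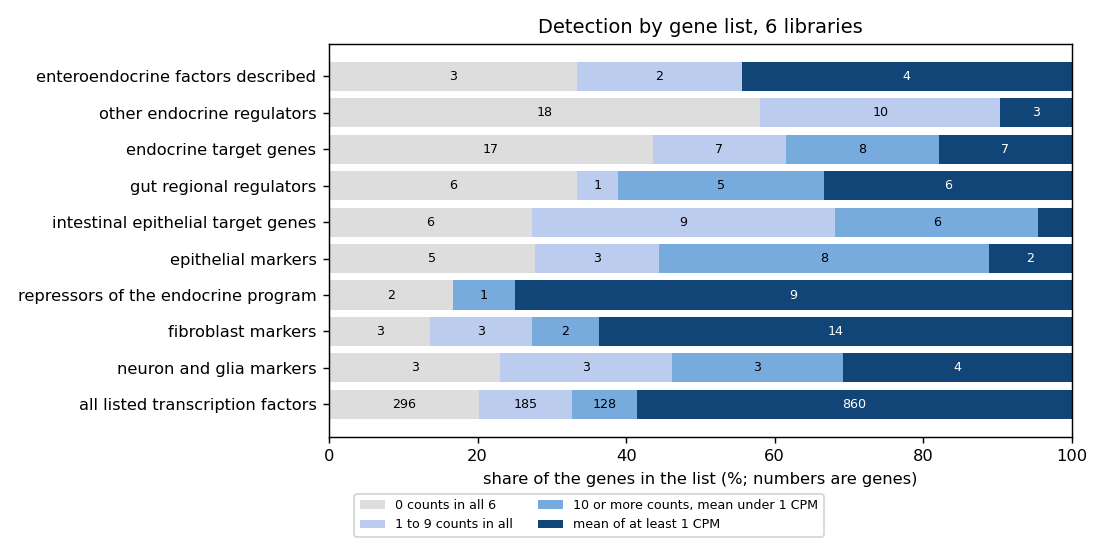
Share of the genes of each list by detection over the 6 libraries, from 0 counts (grey) to a mean of at least 1 CPM (dark blue), with the number of genes in the wider segments. The enteroendocrine factors have 3, 2, 0 and 4 genes in the segments, the other endocrine regulators 18, 10, 0 and 3 and the repressors 2, 0, 1 and 9.

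Markers of other cell types were measured in the same libraries. Of 18 epithelial markers 2 had a mean of at least 1 CPM, Krt8 at 202 and Krt18 at 3.36 FPKM, while Epcam had 1 count in all and Cdh1 14. Of 22 fibroblast markers 14 did, led by Col3a1 at 74.6, S100a4 at 61.7, Twist1 at 44.8 and Col5a1 at 36.2 FPKM, with Thy1, Postn and Tcf21 at 0. Their summed level ran from 1383 to 1883 CPM in the control and from 1731 to 1898 CPM in the shIRS2 libraries. In the libraries numbered 2 it stood at 1416 CPM, above the lowest control library, and at 1731 CPM, the lowest of the shIRS2 libraries. Of the 14 tested markers 9 were called for the number, beside 19.6% of all tested genes. In the contrast of number 2, where Etv1 was lower, 2 markers were called higher and 2 lower, with a median of 0.11. The part of these markers in the Etv1 result was not tested. Means of at least 1 CPM were found for 4 of 13 neuron and glia markers, 2 of 8 smooth muscle, 2 of 9 immune, 1 of 5 interstitial cell, 1 of 8 melanocyte, 1 of 6 skeletal muscle and 0 of 7 endothelial markers. Kit of the interstitial cells, where Etv1 is known as a lineage factor, had 0 counts, as had Tyr of melanocytes and Myod1 of muscle.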

How the data were processed

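RNA was taken up in TRIzol and made into strand-specific paired-end libraries, per the labels' protocols. The authors deposited raw read counts per gene, without normalization, and FPKM values of the same 6 libraries. FPKM, as deposited, equals the count over the listed gene length and over a total that was 0.985 to 1.02 times the summed counts. Reads were placed on mm10 according to the submitters' processing notes, with aligner, counter and strand setting not given in the sources used here.

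Tests of the counts ran in R 4.3.3 with edgeR 4.0.16: filterByExpr by group (13472 genes, 99.9% of counts), TMM, quasi-likelihood tests with robust dispersions, and Benjamini-Hochberg adjustment over all tested genes, two-sided, at 0.05. The hairpin test had no other term, and the number was tested with the hairpin as a second term. P-values in the text are from edgeR unless limma 3.58.1 or DESeq2 1.42.0 is named. Group overlap and pair ratios use TMM-scaled CPM, and printed CPM are unscaled. The steps were tested on simulated data. Alternatives covered tools, scaling, filters, FPKM offsets, the replicate block and single libraries left out.

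The design text speaks of biological triplicates without saying what separates them, so the spread behind each p-value may be partly technical. Deviations from the group mean correlated at 0.167, 0.576 and 0.260 between libraries of the same number, all above 0.1. On these data alone the numbers were taken to pair the libraries in the pair ratios and the block fit, but not in the main hairpin test. Deviations within a group cancel out, so a shift shared by the libraries numbered 2 by itself raises the values of the other numbers. The value was highest for number 2, and the values cannot tell whether the libraries numbered 1 and 3 are paired. The hairpin test without the block gave 262 genes an unadjusted edgeR p under 0.05, fewer than the 673.6 expected with no difference. With the block 1234 genes did, so its intervals differ from those of the main test. The members, lists and tests were chosen with earlier results of these data known. All 9 factors are named. In each list up to 4 genes were named by the smallest hairpin p, by the smallest number p or by FPKM, besides genes at or near 0, and up to 3 genes by correlation (log2 of CPM + 0.5, mean of at least 5 CPM). A few genes that this rule names are not reported here. Some genes fell outside this: those few called in other fits and relatives beside a member. Promoter windows are from RefSeq.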

Additional observations from a re-analysis of the deposited data

How the results depend on the processing

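The directions of Pax6, Etv1 and Nkx2-2 between hairpins held under every alternative run, and no alternative brought a factor past the threshold there, but their size moved with single libraries: from 0.13 (without shIRS2 1) to 0.41 (without shControl 3) for Etv1, from -0.21 (without shControl 2) to -0.050 (without shIRS2 2) for Pax6 and from -0.33 (without shIRS2 2) to -0.12 (without shControl 3) for Nkx2-2. For Foxa2 the sign turned without the shIRS2 library numbered 3, at -0.036. The Nkx2-2 contrast of number 2 turned to -0.05 without the control library numbered 1, -0.15 without the shIRS2 library numbered 2 and -0.12 without the shIRS2 library numbered 3. Genes called between hairpins were 0 in edgeR, 1 with the replicate block, 2 with DESeq2, 4 with DESeq2 and the block (added after seeing the data) and 6 without a filter, none of them one of the 9 factors, and 0 to 0 with single libraries left out. The replicate block changed no other call for these factors. The number test called 2638 genes, 1641 with DESeq2 and 781 with limma on log2(FPKM + 1), and 798 to 3774 with single libraries left out. The contrast of number 2 called 3169, 1968 and 1808 in the same order, and 808 to 3687 with single libraries left out. In the limma fit the Etv1 contrast was -0.38 at an adjusted p of 0.0561. Among those the lowest counts came without the control library numbered 2. Leaving out the shIRS2 library of that number gave 973 and 1081. The causes were not tested. The 4 expressed factors were 2 at a threshold of 5 CPM, since Foxa2 and Nkx2-2 lie below it, and 4 under every other alternative run. Single libraries left out gave -0.036 to 0.38 for the Foxa2 hairpin difference -0.15 to 0.23 for the Nkx2-2 contrast and 0.15 to 0.61 for that of Foxa2. Depth limits the 5 undetected factors to the upper bounds given above, for counting error only and for reads that were assigned to a gene.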
